A study of Schizosaccharomyces pombe with 9 samples.

Results

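The genes of iron and heme acquisition in the fission yeast Schizosaccharomyces pombe were followed in 9 libraries of poly(A) RNA from whole cells. The members were chosen by gene symbol and are 10 of the 5212 genes listed: the siderophore transporter gene str1, the heme transporter gene str3, the heme receptor gene shu1, the ferric reductase genes frp1 and frp2, the multicopper oxidase gene fio1, the iron permease gene fip1, the ferrichrome synthetase gene sib1, and the regulator genes fep1 and php4. Each symbol matched 1 gene, and all 10 had enough counts to be tested. The members, and the gene lists read further on, were chosen with earlier results of these data known. Shares of all genes set beside their counts are therefore descriptions and not a test of enrichment. The libraries form 3 groups of 3: wild type (WT), htb1-E112K cells, with an amino acid substitution in histone H2B (E112K), and htb1-E112K clr6-1 cells, which also have the clr6-1 allele of a histone deacetylase gene (E112K clr6-1). The mutant groups thus share htb1-E112K, and no group with clr6-1 alone is analysed here. The labels give no further genotype, number of clones, temperature, growth phase or iron content of the medium. Whether the replicates are separate cultures is not stated either, so the p-values measure the spread between these libraries, which may be technical.

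Fission yeast takes up iron by several routes. Ferric iron is reduced at the cell surface by ferric reductases, and the ferrous iron is then taken in by the Fio1 oxidase and the Fip1 permease, which work as a pair. Iron is also taken in bound to siderophores such as ferrichrome, which Sib1 helps to make and Str1 carries across the membrane, and as heme, which Shu1 and Str3 bring in. When iron is ample the GATA-type repressor Fep1 keeps these genes and php4 low; when iron is scarce Php4, which joins the CCAAT-binding complex, represses genes whose products use iron.

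The libraries held 16469576 to 20013351 counts. Levels are given in CPM (counts per 1e6 counts), the counts of a gene relative to those of its library, scaled with edgeR's TMM (trimmed mean) factors of 0.987 to 1.02, with the SD over 3 libraries. The mutated genes were read as a check of the labels: htb1 ranged over 1643 to 1719 CPM (WT), 4995 to 5248 CPM (E112K) and 5319 to 5556 CPM (E112K clr6-1), and clr6 over 134.5 to 148.2, 85.6 to 89.1 and 117.7 to 120.6 CPM. Such levels cannot tell a mutant allele from a normal one. Both mutant groups had more htb1 transcript than WT, so this level and the substitution go together in every comparison with WT. The part of either was not tested.

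The Fep1 repressor is known to recognise a GATA-type element, and the letters ATCAGATAA or ATCTGATAA were found on either strand within 1000 bases before the start codon in all 8 uptake and synthesis genes and in php4. The same letters occur in 3.85% of 5112 such windows of protein-coding genes in the RefSeq assembly ASM294v3. In the 250 bases before the annotated transcript start they were found in 4 of the 8 uptake and synthesis genes and in php4, beside 1.12% of windows. Both the 9-letter motif and the longer window were chosen after the tables were seen, so these shares are descriptions and not a test. The matches are shown because the results turn on these 9 genes; each is given 5′ to 3′ with 10 bases on either side on the genome strand named, and capitals mark the match.
str1, chrII:2704640-2704668, + strand: gctgccgaccATCAGATAAttcttatttt
str1, chrII:2705017-2705045, - strand: atatctgatgATCTGATAAgtatccagat
str3, chrI:90892-90920, - strand: gacgttggcaATCTGATAAtttaagacaa
shu1, chrI:86390-86418, - strand: tatcaagataATCAGATAAtttagcttaa
shu1, chrI:86895-86923, - strand: cacaatatccATCTGATAAgtaaaatcgt
frp1, chrII:162470-162498, - strand: aatttggttgATCTGATAAcgcatcaaga
frp1, chrII:162762-162790, - strand: actttagctcATCAGATAAaaaatagact
frp2, chrII:666642-666670, + strand: ttgctatctgATCAGATAAaattttcttg
frp2, chrII:666705-666733, + strand: acagagggagATCTGATAAgttactttac
fio1 and fip1, chrI:4234826-4234854, + strand: tctggattacATCTGATAActtttgtcca
sib1, chrI:869975-870003, - strand: atctctatcgATCTGATAAatataaggtg
php4, chrII:1916884-1916912, + strand: gtttgttttaATCTGATAAagagatacga

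These are 12 distinct sites, since fio1 and fip1 are divergent neighbours whose annotated transcripts start 303 bases apart and share 1 match. The genes str1, shu1, frp1 and frp2 had 2 matches each. The first str1 match spans the annotated start of its transcript and the second lies inside its annotated leader of 866 bases. The php4 match lies 165 bases before the start codon, at the edge of a leader of 155 bases. No match was found for fep1, whose annotated leader of 1348 bases is longer than the window, nor in the 250 bases before its transcript. The sources used here name no build for the deposited tables, and the positions are those of ASM294v3. A match is a run of letters and does not show binding.

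**Figure D1:**
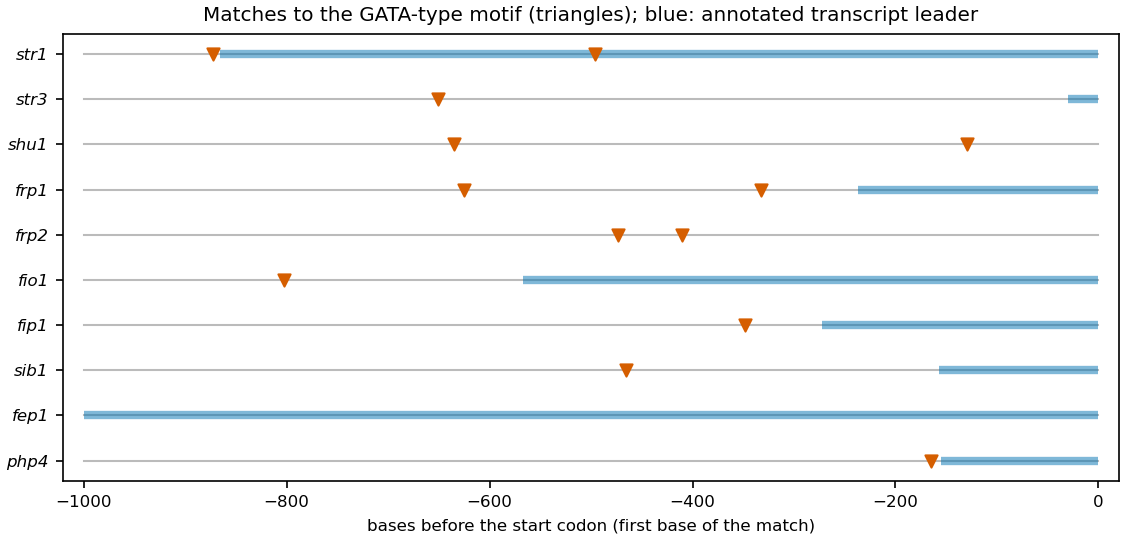
Positions of the 13 matches to ATCAGATAA or ATCTGATAA before the start codon of each gene, in bases; triangles are matches and blue bars the annotated transcript leaders, cut at 1000 bases. All 8 uptake and synthesis genes and php4 hold at least 1 match, and fep1 holds none.

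The shorter letters AGATAA or TGATAA were frequent by comparison. They occurred in the 250 bases before the transcript start of 6 of the 10 genes, beside 39.8% of all such windows, and in the 1000 bases before the start codon of all 10, beside 87.1%. The letters CCAAT, named for the element of the Php complex, stood in 5 of the 10 windows of 250 bases (3 of those of the 8 uptake and synthesis genes), beside 35.3% of all, and in 7 of the 10 windows of 1000 bases, beside 85.0%.

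The first comparison asked how transcript levels in the E112K strain differed from WT. All 8 uptake and synthesis genes were higher in E112K, from 2.06-fold for sib1 to 210-fold for shu1, and php4 was 1.91-fold higher. The repressor gene fep1 was lower. Here and in what follows, a rise or fall by a number is a difference on the log2 scale, and libraries of a group are given and named in the order of their replicate numbers. Of all 5119 genes tested, 76.5% were called, 37.6% higher and 38.9% lower, at a Benjamini-Hochberg adjusted p under 0.05 in edgeR's quasi-likelihood test, and 7.17% were called at least 2-fold higher, so a call alone is common here. All 8 uptake and synthesis genes were past 2-fold, and the median of their log2 fold changes was 2.87 beside -0.01 for all genes tested. The 3 libraries of each group did not overlap for any of the 10 genes, as for 78.0% of genes tested. In a bulk culture, a change in the share of cells that express a gene and a change in RNA per cell cannot be told apart.

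In E112K clr6-1 against WT, the same 8 genes and php4 were called higher and fep1 lower, beside 41.7% and 42.0% of all genes and 83.7% in either direction. All 8 were again past 2-fold, beside 10.1% of all genes called at least 2-fold higher; their median log2 fold change was 3.40, beside -0.0004 for all genes tested. The groups did not overlap for any of the 10, as for 84.8% of genes tested. This comparison shares its WT libraries with the one before. Together the 8 genes took 0.0386% ± 0.0024 of the counts in WT, 0.269% ± 0.0422 in E112K and 0.409% ± 0.0138 in E112K clr6-1 (SD, n = 3), which is 6.99-fold and 10.6-fold more than in WT.

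**Figure D2:**
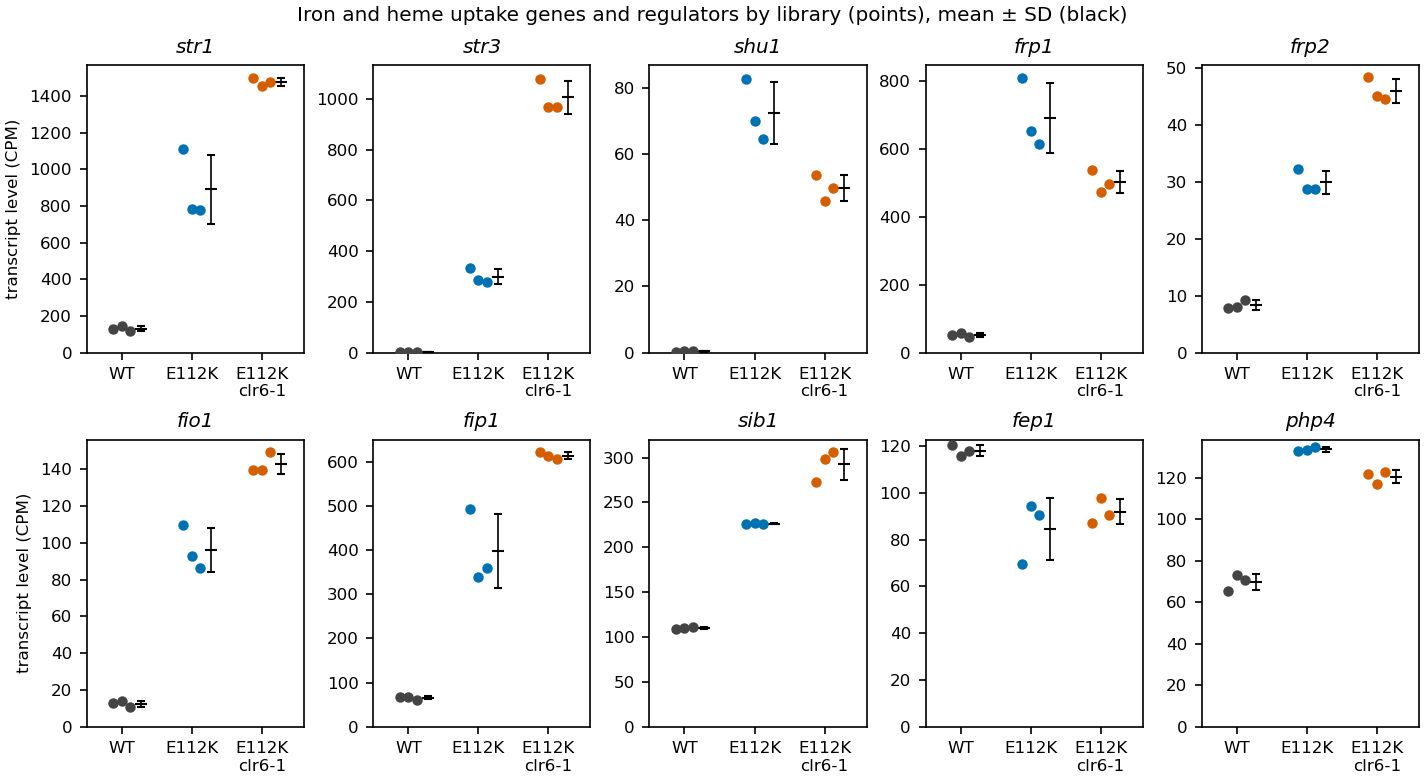
Transcript level in CPM of the 10 genes in each library (points, 3 per group), with the group mean and SD in black; every axis starts at 0. All E112K and E112K clr6-1 libraries lie above all WT libraries for the 8 uptake and synthesis genes and php4, and below them for fep1.

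Siderophore iron is carried in by Str1, a transporter of ferrichrome. Transcripts of str1 (SPBC4F6.09) stood at 126.7, 143.3 and 119.2 CPM in the WT libraries, 1108, 784.7 and 779.1 CPM in E112K, and 1498, 1453 and 1477 CPM in E112K clr6-1. The 3 groups were separate, and the first E112K library was higher than the other two of its group. Against WT the E112K libraries were 6.86-fold higher (log2 fold change 2.78 ± 0.12 SE, adjusted p = 2.7e-10) and those of E112K clr6-1 were 11.4-fold higher (3.51 ± 0.12, adjusted p = 2.05e-11).

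Sib1 is the large nonribosomal peptide synthetase that assembles ferrichrome. Its transcripts (SPAC23G3.02c) were at 108.6, 109.6 and 110.8 CPM in WT, 226.3, 226.7 and 226.4 CPM in E112K, and 272.4, 299.0 and 305.9 CPM in E112K clr6-1. The WT and E112K libraries each lay close together, with an SD of 0.981% and 0.0808% of the mean. At 1999 to 2162 counts in WT and 3712 to 4373 in E112K, sampling noise alone would be expected to exceed these SDs. They are therefore no measure of the spread of the gene. The increases of sib1 over WT, 2.06-fold and 2.66-fold, were the smallest of the 8 genes (adjusted p = 8.41e-11 and 2.96e-12).

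Heme is bound at the cell surface by Shu1, an anchored membrane protein, and Str3 is a heme transporter; their genes are neighbours on chromosome I, transcribed from the same strand. Transcripts of shu1 (SPAC1F8.02c) were close to absent in WT, with 6, 7 and 6 counts in the 3 libraries (0.302, 0.384 and 0.332 CPM). They reached 1358, 1212 and 1246 counts in E112K (82.8, 70.1 and 64.5 CPM) and 1075, 804 and 855 counts in E112K clr6-1 (53.7, 45.8 and 49.6 CPM). All mutant libraries stood far above all WT libraries, and the E112K libraries stood above those of E112K clr6-1. Against WT the E112K libraries were 210-fold higher (log2 7.71 ± 0.18 SE, adjusted p = 7.75e-13) and those of E112K clr6-1 144-fold higher (7.17 ± 0.19, adjusted p = 1.83e-12). Both values rest on those few WT counts.

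Transcripts of str3 (SPAC1F8.03c) were also rare in WT, at 3.37, 2.30 and 3.82 CPM, or 42 to 69 counts. They stood at 332.5, 284.7 and 277.9 CPM in E112K and at 1079, 968.8 and 969.8 CPM in E112K clr6-1. Each mutant group was thus far above WT and the mutant groups were well apart. Within the counts of the 8 genes, str3 made up 0.576 to 1.05% of the WT counts, 10.4 to 11.5% of those in E112K, and 23.7 to 25.4% of those in E112K clr6-1. Against WT it was 94.0-fold higher in E112K (log2 6.55 ± 0.12 SE, adjusted p = 9.27e-14), and 317-fold higher with clr6-1 added (8.31 ± 0.12, adjusted p = 7.68e-15). By the size of its rise over WT, str3 was at rank 20 of 5119 genes in E112K and rank 16 in E112K clr6-1, and shu1 at ranks 14 and 25.

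The pair lies 85.6 and 88.2 kb from the end of chromosome I in ASM294v3, whereas the other members lie at least 160.4 kb from an end. Of the other genes within 100 kb of an end of chromosome I or II, 69 (61.6%) were at least 2-fold higher in E112K than in WT, beside 4.97% of 4007 genes farther in. In E112K clr6-1 against WT the shares were 58.9% and 7.49%. The flanking genes moved in the same direction: the hexose transporter gene ght3 rose by 3.67 on the log2 scale in E112K and 4.79 in E112K clr6-1, and hhy1 by 2.57 and 2.31. The part of the position in the rises of shu1 and str3 was not tested.

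Frp1 is a ferric reductase of the cell surface, and Frp2 is a predicted one. Transcripts of frp1 (SPBC1683.09c) were at 51.4, 56.5 and 46.8 CPM in WT, 808.3, 651.2 and 615.0 CPM in E112K, and 536.7, 473.6 and 497.9 CPM in E112K clr6-1. E112K was the highest group and no library of one group overlapped another. The rises over WT were 13.4-fold (log2 3.74 ± 0.10 SE, adjusted p = 3.25e-12) and 9.75-fold (3.29 ± 0.10, adjusted p = 6.8e-12). Transcripts of frp2 (SPBC947.05c) were at 7.74, 7.95 and 9.30 CPM in WT, 32.2, 28.8 and 28.7 CPM in E112K, and 48.4, 45.1 and 44.5 CPM in E112K clr6-1. The order of the mutants was thus the reverse of that of frp1. It was raised 3.59-fold in the E112K strain (adjusted p = 5.15e-10), and 5.53-fold with clr6-1 added (adjusted p = 1.17e-11). The coding sequences of the genes align with 58.9% identity and a longest identical run of 12 bases, and those of str1 and str3 with 52.4% identity and a run of 9 bases.

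Fio1 oxidises iron at the cell surface as the Fip1 permease carries it in. Transcripts of fio1 (SPAC1F7.08) were at 12.7, 13.8 and 10.6 CPM in WT, 109.7, 92.7 and 86.3 CPM in E112K, and 139.8, 139.7 and 149.3 CPM in E112K clr6-1. Those of fip1 (SPAC1F7.07c) were at 68.1, 66.3 and 61.5 CPM in WT, 492.7, 339.8 and 360.0 CPM in E112K, and 621.9, 613.8 and 604.9 CPM in E112K clr6-1. Both genes had 3 separate groups in the same order. The rises over WT were 7.76-fold and 11.5-fold for fio1 (adjusted p = 2.47e-11 and 2.6e-12) and 6.08-fold and 9.39-fold for fip1 (adjusted p = 3.32e-10 and 2.56e-11). On the scale of the deposited FPKM, which relates fragments to transcript length and library size, the level of fip1 was 7.63 to 9.17 times that of fio1 in WT, 5.81 to 7.12 times in E112K and 6.42 to 7.05 times in E112K clr6-1.

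Among the regulators, fep1 (SPAC23E2.01) was measured at 120.2, 115.5 and 117.8 CPM in WT, 69.5, 94.1 and 90.3 CPM in E112K, and 87.3, 97.8 and 90.5 CPM in E112K clr6-1. All mutant libraries were below all WT libraries, the mutant groups overlapped, and the first E112K library was the lowest. It fell by 0.48 on the log2 scale in E112K (SE 0.08, adjusted p = 0.0002) and by 0.36 in E112K clr6-1 (SE 0.08, adjusted p = 0.00137). Without the first E112K library the fall in E112K was by 0.36 and was still called. Transcripts of php4 (SPBC16E9.01c) were at 65.6, 73.4 and 70.7 CPM in WT, 132.7, 133.5 and 135.0 CPM in E112K, and 121.9, 116.8 and 122.8 CPM in E112K clr6-1. The 3 groups were separate and E112K was the highest. The rises over WT were 1.91-fold (log2 0.94 ± 0.04 SE, adjusted p = 2.88e-10) and 1.72-fold (0.79 ± 0.04, adjusted p = 1.05e-09).

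The authors' deposited table gave the same directions for the 10 genes in both comparisons with WT. In the authors' deposited table the FDR of fep1 was 0.00634 in E112K and 2.08e-05 in E112K clr6-1.

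The third comparison, E112K clr6-1 against E112K, set apart the strains that differ in clr6-1 as far as the labels say. The 8 uptake and synthesis genes did not move as 1 block: 6 were higher in E112K clr6-1 and 2, shu1 and frp1, were lower. Of all genes 78.8% were called, 40.2% higher and 38.6% lower, and the median log2 fold change of the 8 was 0.60 beside 0.01 for all genes tested. The rise of str3 was the largest of the 10 at 3.37-fold (log2 1.75 ± 0.07 SE, adjusted p = 1.81e-10). It was the only one of the 10 past 2-fold in either direction, and 4.47% of all genes were called at least 2-fold higher. Of the other genes within 100 kb of an end of chromosome I or II, where str3 lies, 15.2% were at least 2-fold higher. The share was 3.49% farther in. Of the genes flanking shu1 and str3, ght3 rose by 1.12 and hhy1 fell by 0.26 here. The rises of str1, fip1, frp2 and fio1 lay between 1.49-fold and 1.66-fold (adjusted p from 2.44e-06 to 8.32e-05), and sib1 was 1.29-fold higher (adjusted p = 1.37e-06). Transcripts of shu1 fell by 0.54 on the log2 scale (SE 0.08, adjusted p = 5.59e-05) and those of frp1 by 0.46 (SE 0.09, adjusted p = 0.000324). Of the regulators, php4 fell by 0.15 (adjusted p = 0.00319). For fep1 no difference was called: the log2 value was 0.11, with a 95% interval from -0.07 to 0.30 (adjusted p = 0.239). The groups did not overlap for 9 of the 10 genes, as for 80.5% of genes tested.

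**Figure D3:**
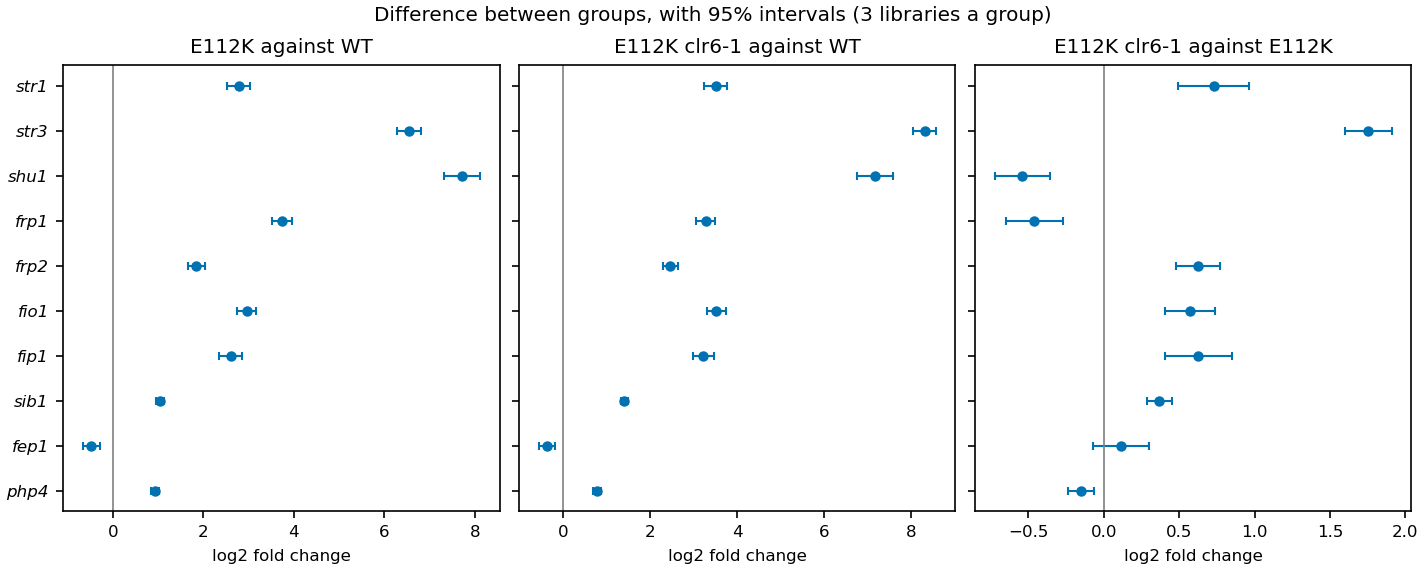
Log2 fold change of each gene (points) with its 95% interval (bars) in the 3 comparisons; the horizontal scales differ. Against WT, fep1 is the only gene left of 0 in either mutant, and in E112K clr6-1 against E112K the genes shu1, frp1 and php4 lie left of 0 with intervals that do not reach it.

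The neighbours shu1 and str3 thus differed in opposite directions between the mutant strains. Their FPKM ratio, str3 over shu1, lay between 1.45 and 1.56 in the E112K libraries and between 7.06 and 7.65 in those of E112K clr6-1, with no overlap. It was 2.17 to 4.16 in WT, where shu1 had 6 to 7 counts. In frp1 and frp2 the ratio of the first to the second lay between 17.0 and 19.9 in the E112K libraries, between 8.32 and 8.86 in those of E112K clr6-1, and between 3.99 and 5.62 in WT.

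Per length, the order of the genes differed between groups. In WT the highest levels were those of php4 at 44.3 ± 2.67 FPKM and str1 at 43.8 ± 4.70 FPKM, which lay within each other's spread, followed by fip1 at 37.5 ± 2.35 and fep1 at 33.9 ± 0.672 FPKM. The lowest were str3 at 1.52 ± 0.358 and shu1 at 0.453 ± 0.0591 FPKM. In E112K frp1 at 321.7 ± 47.4 and str1 at 295.4 ± 62.4 FPKM led and overlapped in their spread, and sib1 was last at 15.0 ± 0.121 FPKM. In E112K clr6-1 the leading genes were str1 at 487.0 ± 10.7 and str3 at 474.9 ± 33.6 FPKM, again within their spread, and sib1 was last at 19.3 ± 1.03 FPKM.

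Spread within a group was not the same for all genes. In E112K the first library held the highest level of 7 of the 8 uptake and synthesis genes, all but sib1, and the lowest of fep1. Relative to the mean of the other two E112K libraries it stood at 1.42 times for str1, 1.41 times for fip1 and 1.28 times for frp1, at 0.753 times for fep1, and at 0.999 and 0.989 times for sib1 and php4. In E112K clr6-1 the highest level of 6 of the 8 genes was in its first library, with str1 at 1.02 times and frp1 at 1.11 times the mean of the others.

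The other genes of iron acquisition were read from a list of 5, of which 4 were analysed. In E112K against WT, 3 of the 4 rose and 1 fell, beside 37.6% and 38.9% of all genes tested. The vacuolar ABC transporter gene abc3 rose 2.02-fold, from 126.5 ± 5.05 to 256.1 ± 14.6 CPM, and sib2, which encodes the ornithine monooxygenase of ferrichrome synthesis and lies next to sib1, rose 1.66-fold, with 104.8 ± 7.93 CPM in WT and 174.5 ± 27.9 CPM in E112K. The siderophore transporter gene str2 rose by 0.20. The vacuolar iron transporter gene pcl1, which lies next to frp1 and whose product moves iron into the vacuole, fell to 0.421 times its WT level, from 321.7 ± 10.3 CPM down to 135.2 ± 13.8 CPM (adjusted p = 4.72e-10). In E112K clr6-1 against WT the log2 fold changes were 1.05 for abc3, 1.48 for sib2, 0.74 for str2 and -0.90 for pcl1. All 4 were called, as were 83.7% of all genes tested. Against E112K, str2, sib2 and pcl1 were higher in E112K clr6-1, beside 40.2% of all genes tested. The gene abc3 was not called (log2 0.04, adjusted p = 0.43). Of these 4 genes, str2 and abc3 held the 9-letter motif in the 1000 bases before the start codon.

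Partners of the regulators were read from a list of 7 genes. Php2, Php3 and Php5 form the CCAAT-binding complex that Php4 joins, Tup11 and Tup12 are co-repressors, Grx4 is a glutaredoxin that relays the iron state to both regulators, and Crm1 is a nuclear exporter. In E112K against WT 1 of the 7 genes rose and 4 fell, beside 37.6% and 38.9% of all genes tested. Their log2 fold changes ran from -0.42 for php2 to 0.46 for crm1 (adjusted p = 6.21e-06 and 6.3e-07). Against WT, 6 of the 7 genes fell in E112K clr6-1, beside 42.0% of all genes tested. Among these were php2 by 0.65, php5 by 0.53, grx4 by 0.30 and tup12 by 0.14, and crm1 was not called (log2 0.05, adjusted p = 0.331). Against E112K 5 of the 7 were lower in E112K clr6-1, php5 by 0.33 and crm1 by 0.42, beside 38.6% of all genes tested. The median of the list was -0.19, -0.29 and -0.23 on the log2 scale in the 3 comparisons.

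Iron-using genes were read from a list of 18 genes of iron-sulfur cluster assembly and iron-sulfur enzymes, 17 of them analysed. In E112K against WT 12 fell and 2 rose, beside 38.9% and 37.6% of all genes tested. The other 3 were not called, and the median log2 fold change was -0.34. The 12 include leu1 and the entry for sdh4, and cyc1 was not called. These genes, described below, stay in all counts and medians of the list. The biotin synthase gene bio2 went from 1014 ± 37.6 to 455.2 ± 24.7 CPM (log2 -1.15, adjusted p = 5.82e-11), the homoaconitase gene lys2 fell by 0.70, and isa1, an assembly factor gene, fell by 1.12. The scaffold gene isu1 went the other way, rising 3.49-fold from 139.4 ± 4.44 to 485.9 ± 27.3 CPM (adjusted p = 7.74e-13). With clr6-1 added, 12 again fell and 2 rose against WT, beside 42.0% and 41.7% of all genes tested, with a median of -0.66. Here isu1 rose 5.84-fold, to 813.9 ± 11.0 CPM, and isa2 rose 3.49-fold, while bio2 fell by 1.42. The gene rip1, which encodes the Rieske iron-sulfur protein of respiratory complex III and was picked out after its values were seen, had the largest log2 change of the list: its mean was 110.4 ± 4.20 CPM for WT, 124.0 ± 38.8 CPM for E112K and 13.7 ± 3.83 CPM for E112K clr6-1. In E112K clr6-1 its log2 change was -3.02 against WT (adjusted p = 5.66e-08) and -3.19 against E112K (adjusted p = 4.6e-08), and it was not called in E112K against WT (log2 0.17, adjusted p = 0.398). The gene leu1 fell by 1.15, but in this yeast it encodes isopropylmalate dehydrogenase, which holds no iron-sulfur cluster, and cyc1 on the same list encodes a heme protein; the identifier listed for sdh4 is described in the tables as a mitochondrial import subunit. The count of risen genes moved with single libraries: without the first E112K library it was 4 in E112K against WT, and without the second it was 8 in E112K clr6-1 against E112K. Between the mutants 4 rose and 7 fell in E112K clr6-1, beside 40.2% and 38.6% of all genes tested. The gene isa2 was higher by 1.48 and isu1 by 0.74, and leu1 and nfs1 were lower, with log2 changes of -0.81 and -0.59.

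**Figure D4:**
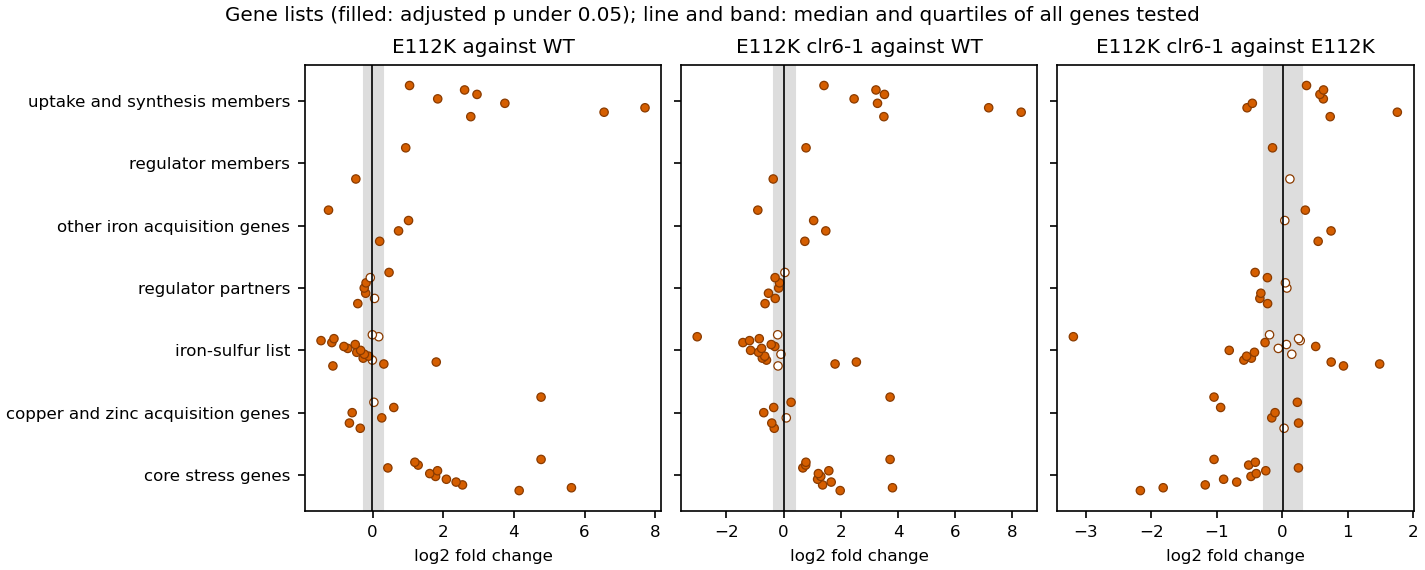
Log2 fold change of every gene of each list (points; filled where the adjusted p was under 0.05) in the 3 comparisons, with the median (line) and quartiles (band) of all 5119 genes tested. The uptake and synthesis genes lie right of the band against WT, most of the iron-sulfur list lies left of 0 against WT, and the core stress genes lie right of 0 against WT and mostly left of it in E112K clr6-1 against E112K.

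Other metals were read for comparison. Of 7 genes of copper and zinc acquisition 3 rose and 3 fell in E112K against WT, beside 37.6% and 38.9% of all genes tested. Their median log2 fold change was 0.04. The metallothionein gene zym1, which also stands on the stress list, rose by 4.77, while the copper transporter gene ctr5 fell by 0.66 and the copper regulator gene cuf1 by 0.58; the zinc transporter gene zrt1 rose by 0.60. In E112K clr6-1 against WT 2 rose and 4 fell, beside 41.7% and 42.0% of all genes tested. There zym1 rose by 3.73, while cuf1 fell by 0.69, ctr5 by 0.41 and ctr4 by 0.33. Between the mutants 2 rose and 4 fell in E112K clr6-1, beside 40.2% and 38.6% of all genes tested. Among those that fell were zym1 by 1.04 and zrt1 by 0.94.

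Core stress genes moved together with the uptake genes against WT. All 12 analysed rose in E112K, beside 37.6% of all genes tested, with a median log2 fold change of 1.96. All 12 also rose in E112K clr6-1, beside 41.7%, with a median of 1.33. The small heat-shock gene hsp16 went from 21.0 ± 2.29 CPM (WT) to 1038 ± 59.6 CPM (E112K) and 293.8 ± 16.6 CPM (E112K clr6-1), and hsp9 from 133.7 ± 11.2 to 2372 ± 56.2 and 527.5 ± 14.6 CPM. Between the mutants 11 of the 12 were lower in E112K clr6-1, beside 38.6% of all genes tested, with a median of -0.61. By contrast, 6 of the 8 uptake and synthesis genes were higher there, beside 40.2%. The part of the stress genes in the changes of the uptake genes was not tested.

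The protein-coding genes on either side of the 10 were read next. Apart from members next to each other, 16 genes flank the 10. In E112K against WT 7 of the 16 rose, 5 fell and 4 were not called. Of all genes tested, 37.6% rose and 38.9% fell. The median log2 fold change of the 16 was 0.06. Of the 16, 3 were at least 2-fold higher, beside 7.17% of all genes tested. They were ght3 and hhy1 beside shu1 and str3 and, beside fip1, the Hsp31-family gene hsp3105, which rose by 1.24. In E112K clr6-1 against WT 8 rose and 6 fell, beside 41.7% and 42.0% of all genes tested, with a median of 0.13. There 4 of the 16 were at least 2-fold higher, beside 10.1% of all genes tested. Beside frp2, pfl3 fell by 1.35 in E112K, and beside str1 neither mrpl39 (log2 -0.07, adjusted p = 0.435) nor vps901 (log2 0.04, adjusted p = 0.215) passed the test there. Beside fep1, the DNA repair gene mre11 rose by 0.36 and lsd2 fell by 0.28 in E112K against WT. Between the mutants 10 of the 16 were higher and 3 lower in E112K clr6-1, beside 40.2% and 38.6% of all genes tested, with a median of 0.22.

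No member overlaps another protein-coding gene in ASM294v3, and no overlapping gene is a row of the count tables. All but frp1 and fip1 overlap at least 1 non-coding RNA annotated on the opposite strand. The sources used here name no strand for the counting, so reads of such antisense RNAs, which cover all 1695 bases of frp2 and 1208 bases of php4, cannot be told apart from those of the genes.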

How the data were processed

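Per the submitters' processing notes the authors used RSEM, StringTie, HISAT2, Bowtie2, fastp and DESeq2, in no stated order or version; no build, annotation or strand is named in those sources. The deposited values are, per the file headers, whole-number counts per gene and library, FPKM per gene and library, and the authors' log2 fold changes, p-values and FDR. The WT counts were identical in both tables. The lengths implied by the deposited FPKM of the first WT library were within 6.59% of the annotated ASM294v3 gene spans for the 10 genes. The largest difference was that of shu1, which had 6 counts in that library. Of 5212 identifiers 5109 matched ASM294v3.

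Counts of all 9 libraries were fitted in 1 model with edgeR 4.0.16 in R 4.3.3 (quasi-likelihood, TMM, filterByExpr; 5119 genes), with 3 contrasts and Benjamini-Hochberg adjustment over all genes; calls have an adjusted p under 0.05. SEs are the log2 fold change divided by the square root of its F statistic. The fit was tested on simulated data. Replicates differed beyond sampling noise (chi-square per degree of freedom 2.96 to 9.67). Alternatives were other scalings (DESeq2 size factors, library totals), no filter, DESeq2 1.42.0, fits to 6 libraries, a replicate block and leaving out each library.

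Members and lists were chosen with earlier results of these data known. Named genes are the members, up to 4 genes of each list by adjusted p, flanking genes, and 5 genes of most similar pattern; the 9-letter motif and the window of 1000 bases were added after the tables were seen. Motif, identity and position values are descriptions. Upstream windows were read from the ASM294v3 genome and annotation, and no protein sequence was used here. The genes sib3, ilv3 and cta1 of the lists are not analysed here.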

Additional observations from a re-analysis of the deposited data

How the results depend on the processing

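The counts of called members kept their values within 1.5 times in all 90 recalculations, and 449 of 450 log2 fold changes of the members kept direction and call. The exception was fep1 in E112K clr6-1 against E112K, which was -0.0015 without the first E112K library (adjusted p = 0.978) and ranged from that value to 0.2003 (adjusted p = 0.0527, without the second) as single libraries were left out, never called. Leaving out single libraries gave fep1 -0.5574 to -0.3559 in E112K against WT and -0.4045 to -0.3205 in E112K clr6-1 against WT. Same-numbered libraries did not deviate together (correlations -0.172 to 0.184, and 5 of 18 correlated best with their own number), so the numbers were not taken as pairs. With the replicate block the members called higher and lower were 9 and 1, 9 and 1, and 6 and 3 in the 3 comparisons, the same as without it, and calls over all genes went from 3914, 4286 and 4035 to 3876, 4267 and 4015. Of 450 list counts 445 stayed within 1.5 times. Those that did not were the risen iron-sulfur genes, from 2 to 4 without the first E112K library in E112K against WT and from 4 to 8 without the second in E112K clr6-1 against E112K. In that last comparison the regulator partners went from 0 to 1 risen without the first E112K library, and the stress genes from 1 to 0 without the third E112K or the second E112K clr6-1 library. The cause was not tested. Depth limits shu1 most, at 6 to 7 counts in WT.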

Other observations

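The 5 genes outside the 10 whose log2 levels followed the mean pattern of the 8 uptake and synthesis genes most closely were taken from 803 ranked genes, by Pearson's r over 9 libraries that fall into 3 groups, so the values describe the group means above all. They were SPAC22F8.05, a predicted trehalose-phosphate synthase gene (r = 0.9989), SPBC725.10, a predicted TspO homolog (0.9988), SPAC9E9.04 (0.9986), SPBPB2B2.06c, a predicted phosphoprotein phosphatase gene (0.9982), and SPCC417.16, a predicted cytochrome c oxidase subunit gene (0.998). Their levels went from 14.9 to 163.6 CPM in WT to between 168.3 and 371.5 CPM in E112K clr6-1.

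Among 183 other tested genes that hold the 9-letter motif in the 1000 bases before the start codon, 11.5% were at least 2-fold higher in E112K than in WT, beside 6.17% of 4833 genes without it. The shares were 14.2% and 8.94% in E112K clr6-1 against WT. Most genes with the motif were therefore not called at least 2-fold higher in either comparison, and 2-fold falls were not counted. Called higher by any amount were 46.4% of genes with the motif and 36.6% without it in E112K against WT. In E112K clr6-1 against WT the shares were 51.9% and 40.7%. Between the mutants 6.56% and 4.03% were at least 2-fold higher in E112K clr6-1.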
